A study of Mus musculus with 40 samples.

Results

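The strongest m6A peaks of the mouse midbrain are the 1992 peaks, of 54337 in 4 lists, whose enrichment in the m6A immunoprecipitate over the input was at least 15-fold in the list of their own group. They lay on 1231 of the 8361 genes with any peak (14.7%), and they fell into 1376 separate intervals when peaks of different lists that shared at least 1 base on the same strand were joined. The list of male mice homozygous for the A30P alpha-synuclein transgene (aSyn Tg) at 15 mo held 632 of them among 13027 peaks, the aSyn Tg list at 3 mo 319 among 13327, 576 of 14123 came from the 15 mo list of their wild-type C57BL/6J littermates (Wt), and 465 of 13860 from the Wt list at 3 mo. The peaks were selected on this enrichment, which was read once over the libraries of a group with no value per mouse, so it has no replicate error. Enrichments in the own list, and the level of input that enters them, are therefore given as a description with no test. Differences in input between groups are tested further below, with the limit that input also entered the choice.

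The transgene is stated to run under the Thy-1 promoter, which is active in many kinds of neurons, while the strain designation in the methods names a Th promoter and a further substitution beside A30P. The aSyn Tg and Wt mice were of the same sex and background, and the labels list 5 input and 5 immunoprecipitated samples for each group. The input table used here holds 19 libraries, 5 each for aSyn Tg 15 mo, aSyn Tg 3 mo and Wt 15 mo and 4 for Wt 3 mo. The sheet with the aSyn Tg 15 mo peaks carries no group name and was assigned because the 3 other sheets name the other groups.

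N6-methyladenosine (m6A) is the most abundant internal modification of messenger RNA. It is written during transcription by a complex of METTL3 and METTL14 with adaptors such as WTAP and RBM15, mostly at an adenosine in the context GGAC, and it is read by YTH domain proteins that steer the splicing, translation and decay of the transcript. Its sites gather in long internal exons, around stop codons and in 3′ untranslated regions, and in neurons methylated transcripts include many that act in development and at synapses.

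The sequences below show what lies inside peaks that were strong in every group. Of the 32 intervals with an enrichment of at least 15-fold in all 4 lists, 29 were searched in the strongest peak, which had a single block, and 19 of these 29 peaks contain GGACT while 26 contain GGAC. The following 25 bases of the transcribed strand surround the GGACT nearest to the centre of the strongest peak, in the 10 of them on genes with a mean normalised input count of at least 50. GGACT is in capitals, and the coordinates are those of mm10 (GRCm38), with the strand of the gene.
Gli3, chr13:15725734-15725758, plus strand, coding sequence of exon 15 of 15: cagtggggatGGACTtggcaccaat
Sstr3, chr15:78539321-78539345, minus strand, coding sequence of exon 3 of 3: ccctgcacagGGACTgctaaggagc
Pdp2, chr8:104594903-104594927, plus strand, coding sequence of exon 2 of 2: gaaagccagtGGACTccatgcggct
Gpr61, chr3:108149890-108149914, minus strand, 3′ UTR, exon 2 of 2: tagggtctctGGACTtagcttttgc
Tenm4, chr7:96906600-96906624, plus strand, 3′ UTR, exon 33 of 33: gccaaggcctGGACTtcttgccaaa
St3gal2, chr8:110957399-110957423, plus strand, 5′ UTR, exon 2 of 7: gggctgagatGGACTgacctctgcc
Dido1, chr2:180660584-180660608, minus strand, coding sequence of exon 16 of 16: ggacaacaggGGACTctcaccttct
Phf3, chr1:30805103-30805127, minus strand, coding sequence of exon 16 of 16: caagacaataGGACTtcaagtgact
Sema6c, chr3:95173331-95173355, plus strand, 3′ UTR, exon 20 of 20: tggccttcccGGACTccgagactct
Celsr3, chr9:108849139-108849163, plus strand, coding sequence of exon 35 of 36: ctcggcccctGGACTctttatctag
In 8 of these 10 the motif lies in the last exon, and the exceptions are St3gal2 and Celsr3. The Gpr61 peak of 540 nt holds 5 copies, and its copy shown here lies 95 nt past the end of the coding sequence. The copy of Tenm4 lies 24 nt past that end, and that of Sstr3 lies 71 nt before it.

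The input libraries held 2163856 to 9195756 reads. Th, the rate-limiting enzyme of dopamine synthesis and a marker of midbrain dopamine neurons, was present in every library at 248 to 517 normalised counts. The forebrain gene Tbr1 reached 145 in replicate 2 of Wt 15 mo, and the cerebellar gene Cbln3 reached 89.5 in replicate 6 of aSyn Tg 3 mo, while they stayed at or below 19 in the other libraries. Replicate 5 of aSyn Tg 15 mo had the fewest reads (2163856), and its 10 most abundant genes took 10% of them, against 5.44% to 7.88% in the other libraries.

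The number of strong peaks differed between lists more than the number of peaks did. They made up 4.85% of the aSyn Tg 15 mo list, 2.39% of the aSyn Tg 3 mo list, 4.08% of the Wt 15 mo list and 3.35% of the Wt 3 mo list. In each genotype the 15 mo list thus held the larger share. The sums of input reads ran in the other direction within aSyn Tg, with 21150631 reads at 15 mo and 29820515 at 3 mo, and were 22193616 at 15 mo and 22520336 at 3 mo in Wt. The depth of the immunoprecipitated libraries was not analysed here, and the part of depth in these shares was not tested. The whole distribution was placed differently too, since 5% of peaks exceeded 14.8-fold in the aSyn Tg 15 mo list, 12-fold in aSyn Tg 3 mo, 13.8-fold in Wt 15 mo and 12.5-fold in Wt 3 mo.

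Strong peaks had a median enrichment of 19.9-fold in aSyn Tg 15 mo, 18.7-fold in aSyn Tg 3 mo, 20.7-fold in Wt 15 mo and 20.5-fold in Wt 3 mo, and 8, 5, 10 and 2 peaks reached 60-fold in that order of groups. The limit of 15 does not fall at a gap. In each list the lowest value inside was 15.0 and the highest outside was 14.9, for example Celsr2 inside and Map3k9 outside in aSyn Tg 15 mo, and 97, 50, 67 and 68 peaks lay between 15 and 16 in the 4 lists in the same order.

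The peaks with the highest values in each list were on genes of different kinds. In aSyn Tg 15 mo they included those on Adra2c, an alpha-2 adrenergic receptor (85.2-fold), and Lingo4, a leucine-rich repeat membrane protein (80.5-fold). In aSyn Tg 3 mo they were on Gpr179, an orphan receptor (85.6-fold), Gm5112, a transcript with no assigned protein (64.0-fold), and Sox4, a transcription factor of neuronal differentiation (63-fold). Wt 15 mo had Tnfrsf1b, a receptor for tumour necrosis factor (83.7-fold), Prdm8, a transcriptional repressor (82.4-fold), and Wnt9b, a secreted Wnt ligand (80.4-fold). Wt 3 mo had Trim25, a ubiquitin ligase of antiviral signalling (75.8-fold), BC067074 (66.3-fold) and Cmklr1, the chemerin receptor (59.2-fold). Of the peaks named here, 2 were strong in all 4 lists, those of Gm5112 and Prdm8.

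The same interval often had a far lower value in another group. The Adra2c peak stood at 85.2-fold in aSyn Tg 15 mo, 12.2-fold in aSyn Tg 3 mo, 14.9-fold in Wt 15 mo and 8.82-fold in Wt 3 mo. The Sox4 peak stood at 11.1-fold in aSyn Tg 15 mo, 63-fold in aSyn Tg 3 mo, 12.8-fold in Wt 15 mo and 6.41-fold in Wt 3 mo. Each was strong in a single list although the interval was called in all 4. The Wnt9b peak had 80.4-fold in Wt 15 mo and 29.2-fold in Wt 3 mo and was in neither aSyn Tg list, on a gene with a mean input count of 7.21. With 1 value per group, such a difference cannot be set against the spread between mice.

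Strong peaks lay on genes with little input RNA. The median input count of their genes, as the mean over the 19 libraries of the counts after division by the size factor, was 64.9 in aSyn Tg 15 mo, 48.9 in aSyn Tg 3 mo, 53.7 in Wt 15 mo and 46.8 in Wt 3 mo, whereas the genes of the other peaks of the same lists had medians of 215, 215, 212 and 207. A strong peak was found on 553 of 1630 genes with a peak and an input count under 50 (33.9%), against 641 of 6490 genes at 50 or more (9.88%), and 37 strong-peak genes have no row in the input table. Over all lists the share of peaks at 15-fold or more was 18% on genes under 10 counts and 12.9% from 10 to under 50. It was 4.02% from 50 to under 200, 1.42% from 200 to under 1000, and 0.657% at 1000 or more. The shares fell in this order of bins in each of the 4 lists, as the plot of the share by input count shows. Input is the denominator of the enrichment, so this order describes the rule as much as the genes.

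**Figure D1:**
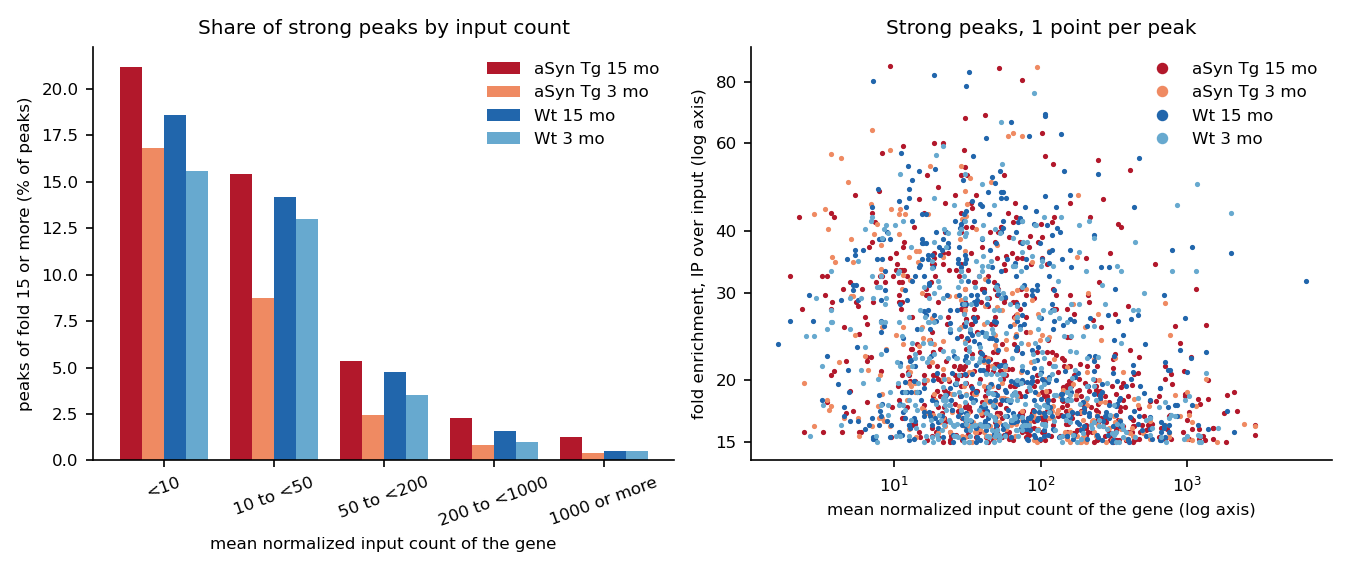
Left, the percentage of each list's peaks with an enrichment of at least 15-fold, in bins of the mean normalised input count of the gene, 1 bar per group. Right, the enrichment of each strong peak against that count, both on log axes, with 1 point per peak. The share falls from 18% of peaks under 10 counts to 0.657% at 1000 or more over all lists, and the densest cloud of points lies between 15 and 30-fold.

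A high enrichment was not the same as a small p-value. The authors' lists give a p-value for each peak, and −log10 p reached 50 in 180 of 632 strong peaks in aSyn Tg 15 mo (28.5%), 92 of 319 in aSyn Tg 3 mo (28.8%), 128 of 576 in Wt 15 mo (22.2%) and 69 of 465 in Wt 3 mo (14.8%). The genes of these better supported peaks had median input counts of 307, 194, 209 and 208 in the order of those groups, against 35.7, 30.4, 37.6 and 37.8 for the remaining strong peaks. Their median enrichment was lower, at 17.1, 16.7, 18.2 and 16.6-fold against 22.2, 21.7, 23.0 and 22.1-fold. The Adra2c peak at 85.2-fold in aSyn Tg 15 mo had a −log10 p of 24.6, while the peak of Vgf at 17.8-fold in Wt 15 mo had a −log10 p of 1620.

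Some strong peaks could not be told apart by their 2 statistics. Both the printed enrichment and the printed p-value were the same as those of another peak of the list for 24.4% of strong peaks in aSyn Tg 15 mo, 12.2% in aSyn Tg 3 mo, 11.1% in Wt 15 mo and 23.2% in Wt 3 mo. Among the other peaks these shares were 12.9%, 9.85%, 11.3% and 13.4%. Cemip, a hyaluronan-binding protein, and E130317F20Rik, a noncoding RNA, both stood at 36.1-fold with a −log10 p of 9.83 in aSyn Tg 15 mo. Dusp10, a phosphatase of stress kinases, and Bach2, a transcriptional repressor, both stood at 33.9-fold with a −log10 p of 9.57 in Wt 3 mo.

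Strong peaks were wider on genes with more input. Over the exons they cover, strong peaks had a median width of 270 nt in aSyn Tg 15 mo, 240 nt in aSyn Tg 3 mo, 269 nt in Wt 15 mo and 240 nt in Wt 3 mo, close to the 239, 211, 240 and 240 nt of the other peaks of those lists. Within bins of input the picture changed. On genes under 10 counts strong peaks had a median of 148 nt and other peaks 179 nt, from 10 to under 50 the medians were 210 and 179 nt, and from 50 to under 200 they were 330 and 210 nt. From 200 to under 1000 they were 510 and 269 nt, and at 1000 or more 660 and 271 nt. Strong peaks were thus narrower than the others on the genes of lowest input and wider on all others.

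Most strong peaks were a single block, that is, they lay within 1 exon. Peaks with more than 1 block made up 4.43% of strong peaks in aSyn Tg 15 mo, 5.02% in aSyn Tg 3 mo, 5.73% in Wt 15 mo and 3.01% in Wt 3 mo, against 11.8%, 12.7%, 13.5% and 12.9% of the other peaks. The gap was not of 1 size at all levels of input. On genes under 10 counts the shares were 2.05% of strong peaks and 12.3% of the others, and on genes of 200 to under 1000 counts they were 13.9% and 14.3%. The strong peak with the most blocks was on Lmtk3, a neuronal transmembrane kinase with an input count of 1381. It spread over up to 6 blocks and 3650 nt, and its enrichment was 20-fold in aSyn Tg 15 mo, 14.3-fold in aSyn Tg 3 mo, 15.9-fold in Wt 15 mo and 13.2-fold in Wt 3 mo. A peak of 3111 nt covered most of the single exon of 4725 nt of Peg13, a maternally silenced noncoding RNA, at 16-fold in aSyn Tg 15 mo and 11.6, 13.4 and 12.4-fold in aSyn Tg 3 mo, Wt 15 mo and Wt 3 mo. Vgf, a neuropeptide precursor, had a peak of up to 2676 nt at 13.7-fold in aSyn Tg 15 mo, 15.1-fold in aSyn Tg 3 mo, 17.8-fold in Wt 15 mo and 12.6-fold in Wt 3 mo. All 3 of these wide peaks were present in every list, and the lists in which they passed the limit differed although their values were close.

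Strong peaks lay in the last exon more often than the others. Peak centres were placed on 1 transcript per gene. Over the 4 lists the centre was in the last exon for 86.1% of strong peaks and 62.5% of the others, and the difference was as large on genes with an input count of at least 50 (85.4% against 60.5%). The exon that held the centre had a median length of 2368 nt for strong peaks and 1847 nt for the others. Transcripts of a single exon, whose only exon counts as the last, held 14.2% of strong peaks and 5.86% of the others.

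By region, 43.7% of strong peaks were centred in coding sequence, 35.5% in the 3′ UTR and 4.74% in the 5′ UTR, against 50.9%, 31.7% and 6.36% of the others. A window of 100 nt on either side of the end of the coding sequence held 19% of strong peaks on coding transcripts and 13.7% of the other peaks. On genes with an input count of at least 50 this share was 16.8% against 13.2%, and in the Wt 3 mo list it was 12.2% against 13.2%, so that this difference did not hold in every list. Noncoding transcripts held 9.83% of strong peaks and 4.66% of the others, and 2.73% and 1.25% at an input count of at least 50. Of the strong-peak genes 88.0% were protein coding, with a median of 5 exons, against 92.7% and 8 exons for the genes that had other peaks only.

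**Figure D2:**
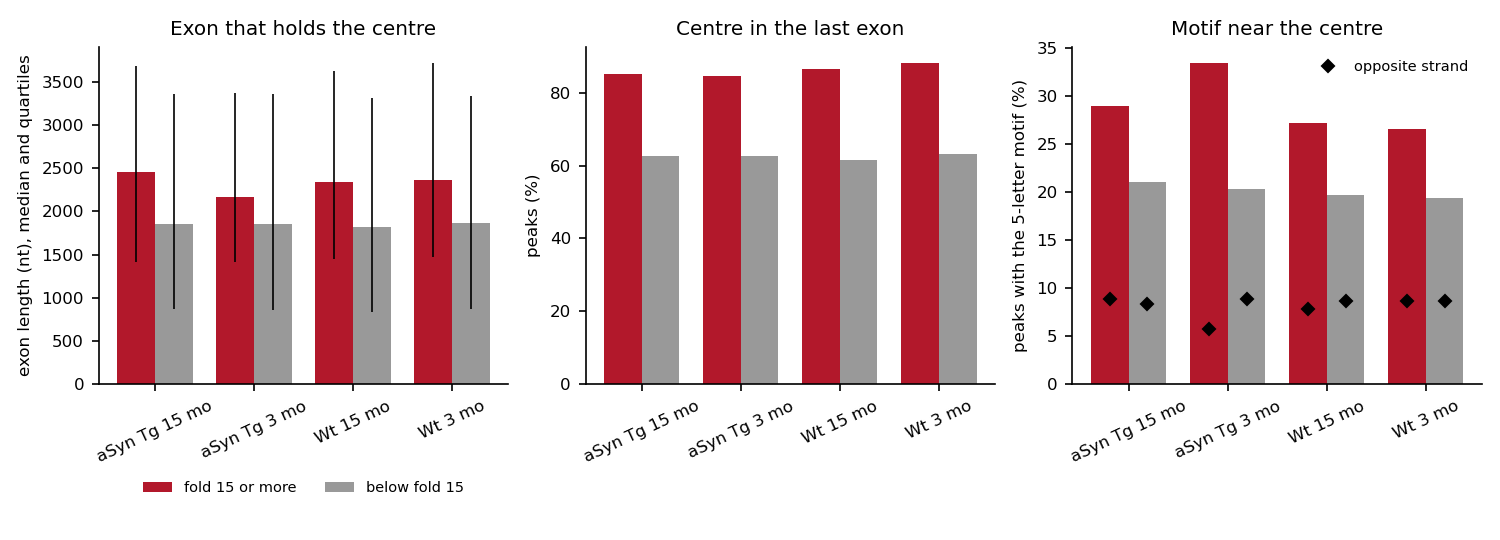
For strong peaks (red) and the other peaks (grey) of each list: left, the length of the exon that holds the peak centre in nt (bars, median; lines, quartiles), middle, the percentage of peaks centred in the last exon, and right, the percentage with GGACT within 50 bases of the centre (diamonds, the same on the opposite strand). The last exon held 86.1% of strong peaks and 62.5% of the others over all lists, and GGACT was found in 28.6% and 20.1%.

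The methylation motif was more frequent at strong peaks. GGACT was searched within 50 bases of each centre, on the transcribed strand and, for comparison, on the opposite one, and GGAC, which every GGACT contains, was searched in the same way. GGACT was present in 28.9% of strong peaks in aSyn Tg 15 mo, 33.4% in aSyn Tg 3 mo, 27.2% in Wt 15 mo and 26.5% in Wt 3 mo, against 21%, 20.3%, 19.7% and 19.4% of the other peaks. On the opposite strand it was present in 8.01% of strong peaks and 8.64% of the others over all lists, so that the difference was on the transcribed strand. GGAC was present in 61.7% of strong peaks and 51.1% of the others. All peaks with such a window had GGACT in 20.4% and GGAC in 51.5%. The median GC content of the windows was 54.5% for strong peaks and 53.5% for the others. Over the full length of the peaks there were 2.35 copies of GGACT per 1000 nt in strong peaks and 1.89 in the others, and 0.928 and 0.970 on the opposite strand. Peaks of 1 interval in several lists share their sequence, so the 4 lists are not separate samples of sequence.

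An interval was seldom as strong in the other groups. Of the strong peaks of aSyn Tg 15 mo, 79.3% overlapped a peak of aSyn Tg 3 mo and 21.2% a strong one, 80.7% and 26.4% in Wt 15 mo, and 82.0% and 23.1% in Wt 3 mo. The strong peaks of aSyn Tg 3 mo, the smallest set, were strong again most often, in 41.1% in aSyn Tg 15 mo, 37.0% in Wt 15 mo and 32.9% in Wt 3 mo. Those of Wt 15 mo were strong again in 29.3% in aSyn Tg 15 mo, 20.7% in aSyn Tg 3 mo and 21.7% in Wt 3 mo. Those of Wt 3 mo were strong again in 30.8% in aSyn Tg 15 mo, 22.4% in aSyn Tg 3 mo and 26.7% in Wt 15 mo. Peaks below the limit overlapped a strong peak of another list in 1.22% to 3.13%.

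Where the interval was called in the other list, its enrichment there was lower than in the own list for most strong peaks, in 66.4% to 90.6% depending on the pair, and its median there was 10.8 to 15.1-fold. Of those called there, 1.16% to 5.26% were under 5-fold, a level near the median of all peaks of a list (4.70 to 5.22-fold). Because the value in the own list chose the peaks, this direction is fixed by the choice and is no finding. All 3 other lists were also at 15-fold or more for 5.06% of strong peaks in aSyn Tg 15 mo, 10.7% in aSyn Tg 3 mo, 5.56% in Wt 15 mo and 6.88% in Wt 3 mo, whereas 53.6%, 34.5%, 53.5% and 49.2% were strong in no other list.

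**Figure D3:**
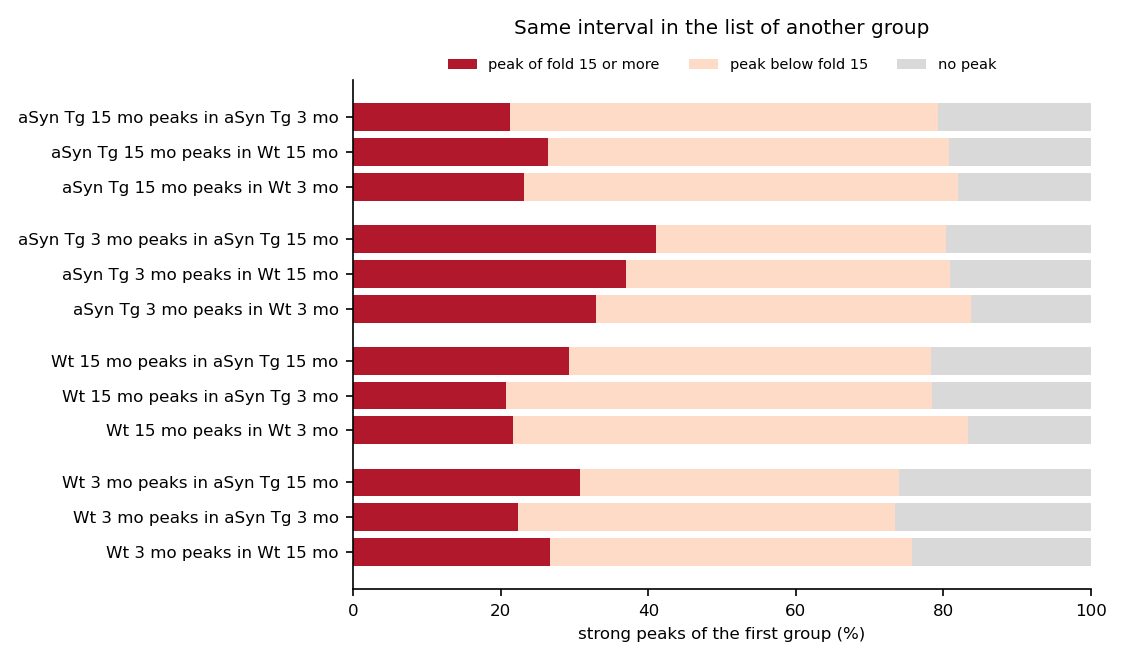
For the strong peaks of each list, the percentage whose interval holds a peak of at least 15-fold (red), a peak below 15-fold (light) or no peak (grey) in the list of another group, 1 bar per pair of lists. Between 73.5% and 83.7% had some peak in the other list, and between 20.7% and 41.1% a strong one.

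Counted as intervals, 32 of 1376 were strong in 4 lists (2.33%), 107 in 3, 261 in 2 and 976 in a single list (70.9%). Of the 976, 557 had a peak in all 4 lists and 203 had no peak outside their own. Every pair of lists shared some intervals that the other lists did not hold as strong. Of those strong in exactly 2 lists, 71 were strong in aSyn Tg 15 mo and Wt 15 mo and 55 in aSyn Tg 15 mo and Wt 3 mo. There were 34 strong in both aSyn Tg lists, 39 in both Wt lists, 36 in aSyn Tg 3 mo and Wt 15 mo, and 26 in both 3 mo lists. The lists differ in size, and 165 intervals strong in both 15 mo lists were 26.7% of those of aSyn Tg and 29.5% of those of Wt, while 128 strong in both aSyn Tg lists were 20.7% of those at 15 mo and 40.9% of those at 3 mo.

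The spread of an interval between lists narrowed with input. Among the 874 intervals with a strong peak in some list and a peak in all 4, the highest value was at a median of 2.55 times the lowest. The median was 2.93 times on genes with an input count under 50, 2.74 times from 50 to under 200 and 1.76 times at 200 or more, and the share with a ratio above 2 was 80%, 75.1% and 39.4%. Among the 32 intervals strong in all 4 lists the median ratio was 1.86, and the lowest was 1.08, for Celsr3, an atypical cadherin of axon guidance. All these intervals were chosen for a highest value of 15-fold or more. The median of strong peaks fell from 21.8-fold at 10 to under 50 counts to 17.4-fold at 200 to under 1000. The ratios therefore follow in part from the choice and are a description.

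The intervals that were strong in every group on well expressed genes had values close to each other. They were chosen at 15-fold or more in every list, and strong peaks had a median of 17.4-fold on genes of 200 to under 1000 counts. Part of this closeness is therefore set by the choice. Tenm4, a teneurin that acts in neuronal adhesion and had the highest input of the 32 (1329), stood at 25.8-fold in aSyn Tg 15 mo, 20.1-fold in aSyn Tg 3 mo, 22.8-fold in Wt 15 mo and 20.6-fold in Wt 3 mo. The peak covered the end of the coding sequence and the motif copy printed above. Phf3, a PHD finger protein that binds RNA polymerase II, stood at 16.6, 18.9, 20.7 and 15.4-fold in the same order of groups, and Celsr3 at 16.9, 15.6, 16.2 and 16.7-fold. Dido1, a chromatin-binding PHD finger protein with a peak of up to 2428 nt and 30 copies of GGAC in its strongest peak, stood at 25.7-fold in aSyn Tg 15 mo, 18.6-fold in aSyn Tg 3 mo, 17.8-fold in Wt 15 mo and 16.9-fold in Wt 3 mo. These 4 genes had input counts of 744 or more.

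Regulators of Hedgehog and TGF-beta signalling were among the same set. Gli3, a zinc finger factor that transmits Hedgehog signals (input 124), had the highest mean of those with an input count of at least 50, at 42.6-fold in aSyn Tg 15 mo, 22-fold in aSyn Tg 3 mo, 30.4-fold in Wt 15 mo and 18.6-fold in Wt 3 mo. Both 15 mo values were above both 3 mo values, with 1 value in each group. Gas1, a Hedgehog co-receptor with an input of 30.6, stood at 28.2, 30.5, 21.9 and 52.1-fold in that order, with Wt 3 mo the highest. Smad7, which inhibits TGF-beta signalling, stood at 19.7-fold in aSyn Tg 15 mo, 20.7-fold in aSyn Tg 3 mo, 24.6-fold in Wt 15 mo and 15.9-fold in Wt 3 mo. St3gal2, a sialyltransferase of gangliosides, had its peak in the 5′ UTR at 20.6, 17.8, 16.3 and 27.7-fold in the same order.

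A pair of receptors and a metabolic enzyme were also in the set. Sstr3, a somatostatin receptor of neuronal cilia (input 67.1), stood at 45.4-fold in aSyn Tg 15 mo, 26.6-fold in aSyn Tg 3 mo, 16.5-fold in Wt 15 mo and 16.7-fold in Wt 3 mo, so that both aSyn Tg values were above both Wt values. Pdp2, the phosphatase that activates pyruvate dehydrogenase (input 107), stood at 46.9-fold in Wt 15 mo and at 16.4, 16.2 and 16.2-fold in aSyn Tg 15 mo, aSyn Tg 3 mo and Wt 3 mo. Gpr61, an orphan receptor (input 90.3), stood at 29.3, 17.2, 21.1 and 21.8-fold in aSyn Tg 15 mo, aSyn Tg 3 mo, Wt 15 mo and Wt 3 mo. No test can be made of these single values.

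**Figure D4:**
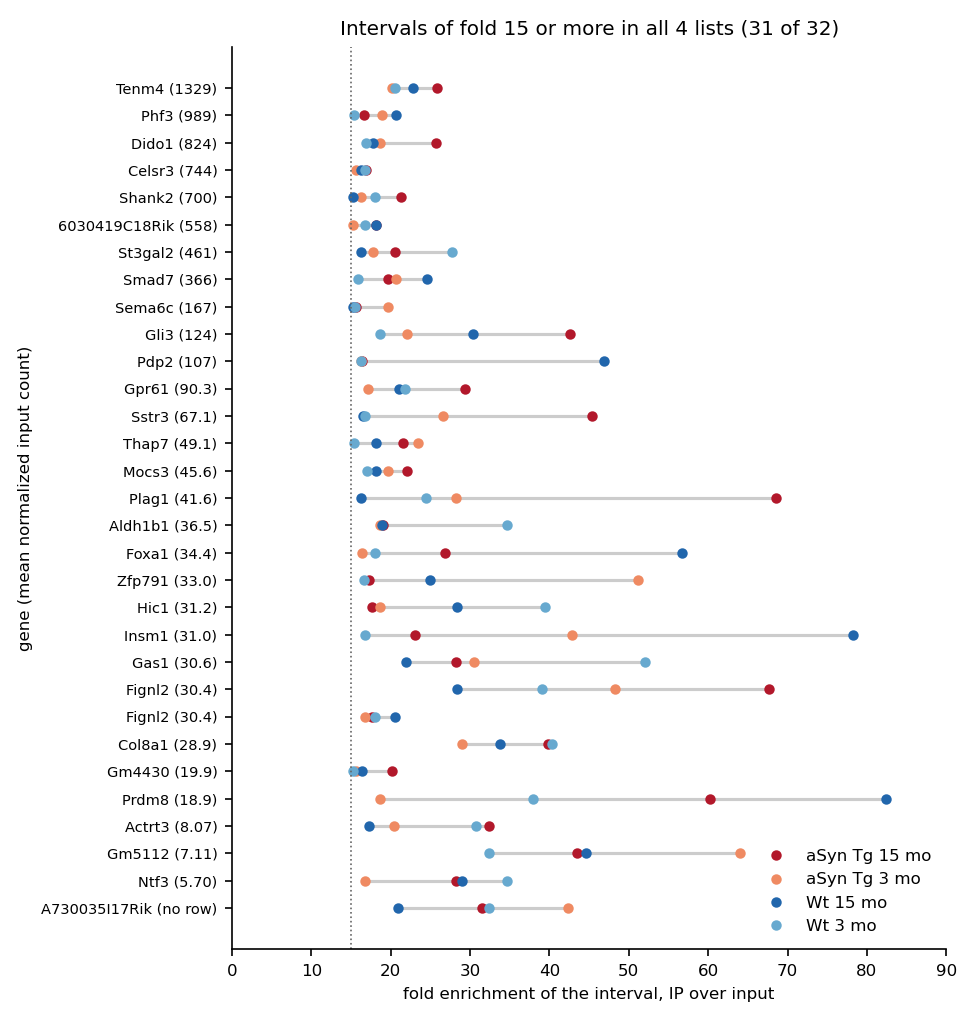
Enrichment over input (linear axis) of intervals of at least 15-fold in all 4 lists, 31 of the 32, 1 point per group, ordered by the mean normalised input count of the gene given in brackets. The dotted line marks 15-fold. The points of genes with 200 counts or more lie within 1.08 to 1.70 times of each other, and those of several genes with lower counts, such as Pdp2 and Insm1, spread more widely.

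Several of the 32 were on genes of low input that are known from development. Prdm8 stood at 60.2-fold in aSyn Tg 15 mo, 18.7-fold in aSyn Tg 3 mo, 82.4-fold in Wt 15 mo and 37.9-fold in Wt 3 mo. Its interval overlaps that of the antisense transcript A730035I17Rik on the opposite strand, at 31.5, 42.3, 20.9 and 32.4-fold, and reads of the 2 cannot be told apart unless strand was used in the counting. Foxa1, a factor that midbrain dopamine neurons need, had an input count of 34.4 and 26.8, 16.4, 56.7 and 18-fold in aSyn Tg 15 mo, aSyn Tg 3 mo, Wt 15 mo and Wt 3 mo. Insm1, a zinc finger factor of neuroendocrine cells, stood at 23.1, 42.8, 78.3 and 16.8-fold in that order, and Ntf3, the neurotrophin-3 precursor, at 28.2, 16.7, 29.0 and 34.7-fold. The group with the highest value differed from gene to gene. Of all strong peaks, 6.53% had a peak of the same list on the opposite strand, against 6.32% of the others. The opposite peak was itself strong for 91 of these 130 strong peaks, against 43 of 3307 of the others.

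No peak of any other list overlapped 9.18% of strong peaks in aSyn Tg 15 mo, 9.09% in aSyn Tg 3 mo, 10.1% in Wt 15 mo and 12.9% in Wt 3 mo, against 3.97%, 4.83%, 6.98% and 6.53% of the other peaks. Counted as intervals there were 57 in aSyn Tg 15 mo, 28 in aSyn Tg 3 mo, 58 in Wt 15 mo and 60 in Wt 3 mo, and of these 11, 3, 13 and 16 were on genes with an input count of at least 50. In aSyn Tg 15 mo the highest were on BC067074 (40.7-fold, 150 nt), Cemip (36.1-fold, 121 nt) and Six3os1, a noncoding RNA antisense to a homeobox gene (35.2-fold, 151 nt). In aSyn Tg 3 mo all 3 were on Set, a histone chaperone (28.5-fold, 61 nt), Fancm, a helicase of DNA repair (25.6-fold, 181 nt), and Rhof, a small GTPase (17.7-fold, 91 nt). In Wt 15 mo the highest were on Dedd2, a death effector domain protein (40.5-fold, 61 nt), Adamts6, a secreted metalloproteinase (37.8-fold, 151 nt), and Nefm, the medium neurofilament subunit (31.7-fold, 120 nt). The Dedd2 peak was centred outside the annotated exons of the gene. That of Nefm was centred in an exon of a transcript other than the one used for placing. The input counts of these genes therefore need not describe the RNA under those peaks. In Wt 3 mo they were on Cdh23, a cadherin of hair cells (42.6-fold, 181 nt), Dusp10 (33.9-fold, 210 nt) and Bach2 (33.9-fold, 121 nt). The −log10 p of these 12 peaks stayed low beside those of the wide peaks above, from 7.46 for Set to 12.9 for Fancm.

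A few genes carried several strong intervals. Of the 1231 genes, 21 had 3 or more. Fignl2, an ATPase related to the microtubule-severing enzyme fidgetin, had 5 along the same exon of 4217 nt, with 15 strong peaks over the 4 lists. The highest interval of Fignl2 stood at 67.6-fold in aSyn Tg 15 mo, 48.2-fold in aSyn Tg 3 mo, 28.4-fold in Wt 15 mo and 39.1-fold in Wt 3 mo, and a second interval strong in every list stood at 17.6, 16.7, 20.5 and 18-fold. E130317F20Rik had 4 intervals, none strong in more than 2 lists, and BC067074 had 3, each strong in a single list.

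Lists of transcription factors and immediate early genes held many strong-peak genes. The lists were drawn up with earlier results of these data known, so their shares are descriptions, to be read beside 14.7% of all genes with a peak. Of 45 Sox, Fox, Klf and Pou factors with a peak 17 had a strong one (37.8%), and of 19 immediate early genes 7 (36.8%). Zinc finger genes named Zfp had 62 of 286 (21.7%). The median input count of the genes with a peak was 183 for the first list, 68.9 for the immediate early genes and 99.5 for the Zfp genes. Pou3f3, a POU homeodomain factor of the brain with an input count of 706, stood at 20.1-fold in aSyn Tg 15 mo, 28.6-fold in aSyn Tg 3 mo, 21.7-fold in Wt 15 mo and 14.5-fold in Wt 3 mo, over a peak of 2640 nt that was centred in its 5′ UTR. Pou2f2 stood at 10.9, 29.0, 29.7 and 8.82-fold in that order. The activity-regulated Fosb stood at 22.2-fold in aSyn Tg 15 mo, 35.4-fold in aSyn Tg 3 mo, 15.1-fold in Wt 15 mo and 10.1-fold in Wt 3 mo at an input count of 12.8. Zfp568, a repressor of a placental growth factor transcript in mice, reached 54.5-fold in Wt 3 mo with 23.6-fold in aSyn Tg 15 mo, 8.78-fold in Wt 15 mo and no peak in aSyn Tg 3 mo.

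Clustered protocadherins, cell surface proteins that give neurons their identity, had 14 strong-peak genes of 55 with a peak (25.5%), with a median input count of 52.1. Pcdhb3 had a peak in all 4 lists, at 29.6-fold in aSyn Tg 15 mo, 37.4-fold in aSyn Tg 3 mo, 13.5-fold in Wt 15 mo and 15.8-fold in Wt 3 mo. Pcdha9 stood at 39.8-fold in aSyn Tg 15 mo, 10-fold in Wt 15 mo and 13.2-fold in Wt 3 mo, with no peak in aSyn Tg 3 mo, and Pcdhb12 at 19.4, 8.78, 8.27 and 32.8-fold in aSyn Tg 15 mo, aSyn Tg 3 mo, Wt 15 mo and Wt 3 mo. These genes resemble each other in sequence, and how reads matching several of them were counted is not given in those sources consulted here.

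Synaptic lists had shares of strong-peak genes on both sides of that of all genes with a peak (14.7%), and of that of genes with a peak and an input count of at least 50 (9.88%), which is nearer to their own level of input. Voltage-gated channels had 7 of 39 (17.9%), postsynaptic scaffolds 4 of 28 (14.3%), synaptic adhesion molecules 4 of 35 (11.4%), glutamate and GABA receptors 3 of 35 (8.57%) and the presynaptic release machinery 2 of 33 (6.06%), with median input counts of 389 to 1488. Shank2, a scaffold of excitatory synapses (input 700), was the only member of the synaptic lists strong in all 4 groups, at 21.3-fold in aSyn Tg 15 mo, 16.2-fold in aSyn Tg 3 mo, 15.3-fold in Wt 15 mo and 18-fold in Wt 3 mo, in coding sequence of its last exon. Its paralogue Shank1 stood at 15.5, 13.0, 13.4 and 10.7-fold in the same order over 2 blocks and 2666 nt. Cacna1e, a subunit of R-type calcium channels, stood at 18.6-fold in aSyn Tg 15 mo, 14.2-fold in aSyn Tg 3 mo, 17.3-fold in Wt 15 mo and 13.2-fold in Wt 3 mo, and its strongest peak was centred 78 nt past the end of the coding sequence. Unc13b, which primes synaptic vesicles, reached 40.7-fold in aSyn Tg 15 mo and 33.2-fold in Wt 3 mo and stood at 10.4-fold in aSyn Tg 3 mo, at an interval with no peak in Wt 15 mo. Its aSyn Tg 15 mo peak was only 91 nt wide, with a −log10 p of 11.2. It was centred in an exon of a transcript other than the one used for placing.

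Other lists held few strong-peak genes, some of them among few genes with a peak. Their counts are to be read beside 14.7% of all genes with a peak and 9.88% of those with an input count of at least 50. Of 13 genes of the m6A machinery with a peak, 1 had a strong one: Rbm15b, an adaptor of the methyltransferase complex, at 19.9-fold in Wt 15 mo and 33.9-fold in Wt 3 mo, with no peak there in either aSyn Tg list. Of 17 myelin and oligodendrocyte genes 1 had a strong peak. Chromatin regulators had 3 of 43. Respiratory chain genes had 0 of 6, cytosolic ribosomal protein genes 0 of 2 and Parkinson disease genes 0 of 10. Median input counts of the genes with a peak were 331 for the m6A machinery, 497 for myelin and 965 for chromatin. They were 279 for the respiratory chain, 20.4 for ribosomal proteins and 1095 for Parkinson disease. Whether any list held fewer than its input level would give was not tested.

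The RNA level of strong-peak genes was then compared between groups, which asks whether genes under the strongest peaks change in expression with age or genotype. The rule did not use these contrasts, but the input libraries compared here are the denominator of the enrichment that chose the genes. A low input in a group can lift a gene into the set there. The called shares below are therefore not independent of the choice and are given as a description. A change was called where the adjusted p was 0.05 or less and the fold change 1.2 or more in the quasi-likelihood test of edgeR, fitted to all genes with a mean normalised count of at least 50. About as many strong-peak genes fell under this limit as passed it, with 635 to 645 of 1231 tested per comparison, so nothing is known here of the others. These are counts of whole midbrain, in which fewer cells of a type and less RNA per cell cannot be told apart. The midbrains came from as many mice as there were samples in a group, so p-values refer to the spread between mice.

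With age in aSyn Tg, 10 of 635 strong-peak genes changed (1.57%), against 0.913% of all 10947 genes tested. At 15 mo 9 were higher, where the background is 0.795%, and 1 was lower, where it is 0.119%. An unadjusted p under 0.05 was found for 84 (13.2%), against 11.2% of all genes. Of the 9 that rose, 5 are known from antiviral and interferon responses (Parp14, Rnf213, Ifit3b, Gbp7 and Trim25), a grouping made after their values were seen. Ifit3b and Gbp7 among them were tested only because their 15 mo counts lifted the mean over the limit. Parp14, an ADP-ribosyltransferase induced by interferon, had 109, 141, 150, 116 and 93.8 normalised counts in aSyn Tg 15 mo libraries, against 59.7, 55.5, 50.4, 51.5 and 61.3 in aSyn Tg 3 mo libraries. The 2 groups did not overlap, and the log2 change was 1.14 ± 0.13 (SE, adjusted p = 5.48e-04, edgeR). Rnf213, an interferon-induced ubiquitin ligase, had 546, 796, 757, 864 and 532 counts in aSyn Tg 15 mo, against 317, 370, 331, 312 and 405 in aSyn Tg 3 mo (log2 change 1.00 ± 0.13, adjusted p = 0.00128, edgeR). Ifit3b, an antiviral protein with a near-identical neighbour, Ifit3, had 51.4, 104, 94.6, 92.0 and 55.0 counts in aSyn Tg 15 mo, against 27.6, 25.7, 29.5, 26.1 and 28.2 in aSyn Tg 3 mo (log2 change 1.52 ± 0.20, adjusted p = 0.00177, edgeR). In 3 of its 15 mo libraries it stood at 92.0 to 104 and in the other two at 51.4 and 55.0, all above the 3 mo libraries. With a mean of 79.3 in aSyn Tg 15 mo and 27.4 in aSyn Tg 3 mo, Ifit3b passed the limit of 50 counts only through the group where it was high.

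Gbp7, an interferon-induced GTPase, averaged 81.6 ± 15.9 counts in aSyn Tg 15 mo and 42.9 ± 6.53 in aSyn Tg 3 mo (SD, n = 5 each; log2 change 0.94 ± 0.16, adjusted p = 0.00919, edgeR). Trim25 averaged 128 ± 27.3 and 78.6 ± 13.1 (log2 change 0.70 ± 0.15, adjusted p = 0.0484, edgeR), with 1 library of each group overlapping the other. Some glial markers were higher with these genes and others were not. The summed count of 4 of 4 microglial markers (Cx3cr1, P2ry12, Csf1r and Aif1, none at 0) was 571 to 806 in aSyn Tg 15 mo libraries and 501 to 524 in aSyn Tg 3 mo libraries. That of 4 of 4 astrocyte markers was 6697 to 8833 and 5554 to 6574. Cx3cr1 and Csf1r did not overlap between the ages and Aif1 did, while P2ry12 averaged 73.9 at 15 mo and 76.7 at 3 mo. Among astrocyte markers Gfap averaged 2566 and 940, Aldoc 2522 and 2627, and Aqp4 and Slc1a3 overlapped. The part of these markers in the changes was not tested.

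The 3 remaining named changes concern the cell surface. Pcdhb14 had 200, 194, 191, 167 and 234 counts in aSyn Tg 15 mo, against 128, 143, 124, 124 and 124 in aSyn Tg 3 mo (log2 change 0.64 ± 0.09, adjusted p = 0.00213, edgeR), with no overlap. Pcdhga2 averaged 91.7 ± 12 counts in aSyn Tg 15 mo and 60.2 ± 2.95 in aSyn Tg 3 mo (log2 change 0.63 ± 0.10, adjusted p = 0.00917, edgeR). Over the 32 clustered protocadherins tested, 4 rose and 0 fell with age in aSyn Tg, with a median log2 change of 0.30 against 0.00 for all genes. In Wt, 2 of 29 rose and 0 fell, with a median of 0.18 against 0.00. The median input count of protocadherins with a peak, 52.1, lies near the count limit for testing. In the comparison of genotypes at 3 mo, 28 were tested. Some may thus have been tested with age only because their 15 mo counts lifted the mean over the limit. This can raise the medians and the counts of rises, and its part was not tested. Hcn4, a pacemaker channel, was the single strong-peak gene that fell, to 122 ± 5.60 counts in aSyn Tg 15 mo, against 156 ± 10.4 in aSyn Tg 3 mo (log2 change −0.35 ± 0.07, adjusted p = 0.0438, edgeR).

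With age in Wt, 7 of 645 strong-peak genes changed (1.09%), against 0.359% of all genes tested. At 15 mo 1 was higher, against a background of 0.129%, and 6 were lower, against 0.230%. An unadjusted p under 0.05 was found for 115 (17.8%), against 15.6% of all genes. Gpr17 and Cspg4, which were among those that fell, are known from oligodendrocyte precursors, a grouping made after their values were seen. Gpr17, a receptor of differentiating precursors, had 183, 189, 250, 171 and 200 counts in Wt 15 mo, against 340, 324, 409 and 312 in Wt 3 mo (log2 change −0.81 ± 0.11, adjusted p = 0.0131, edgeR). Cspg4, the NG2 proteoglycan of the same cells, had 191, 222, 222, 189 and 189 counts in Wt 15 mo, against 276, 283, 279 and 259 in Wt 3 mo (log2 change −0.44 ± 0.07, adjusted p = 0.0285, edgeR). Neither overlapped between ages. Of 9 fits with a library left out, the call of Gpr17 was lost in 1 and that of Cspg4 in 6. Markers of mature oligodendrocytes (4 of 4) summed to 14100 to 17695 in Wt 15 mo and 15175 to 18397 in Wt 3 mo. Some other marker sums did not overlap between the ages. Neurons (4 of 4) had 9226 to 11062 in Wt 15 mo and 8275 to 9163 in Wt 3 mo. In the same groups microglia (4 of 4) had 579 to 645 and 507 to 556, and endothelium (3 of 3) 947 to 1002 and 1065 to 1226. The sums of astrocytes (6067 to 7025 and 5947 to 6597) and midbrain dopamine neurons (1293 to 2280 and 1479 to 2215) did overlap. Taken singly, each neuronal marker overlapped between the ages, and so did Csf1r, Aif1 and Pecam1. The microglial marker P2ry12 averaged 78.5 in Wt 15 mo and 78.3 in Wt 3 mo, so not every marker moved with its sum. The part of these sums in the changes was not tested. Mdga1, an adhesion molecule that limits synapse formation, averaged 288 ± 28.4 in Wt 15 mo (n = 5) and 386 ± 20.5 in Wt 3 mo (n = 4, SD; log2 change −0.43 ± 0.07, adjusted p = 0.0285, edgeR), Sall3, a zinc finger factor, averaged 69.8 ± 3.49 and 103 ± 11.4 in the same groups (log2 change −0.58 ± 0.10, adjusted p = 0.0342, edgeR). Vgf averaged 902 ± 98.5 in Wt 15 mo and 1169 ± 74.9 in Wt 3 mo (log2 change −0.38 ± 0.07, adjusted p = 0.0487, edgeR), and the noncoding Gm14204 averaged 99.6 ± 10.1 and 149 ± 12.3. Pcdhb14 was the gene that rose, with 168, 196, 156, 194 and 186 counts in Wt 15 mo, against 122, 142, 135 and 126 in Wt 3 mo (log2 change 0.46 ± 0.09, adjusted p = 0.0475, edgeR).

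This Wt comparison rested on single libraries. The count of 7 became 32 without replicate 3 of Wt 15 mo (4.96%, against 3.00% of all genes), 3 without its replicate 2 or 4, 1 without its replicate 1 or 5, 1 without replicate 2, 3 or 5 of Wt 3 mo, and 0 without replicate 4 of Wt 3 mo. Over all genes the count ran from 0 to 326 as these libraries were left out. DESeq2 called 14 (2.17%, against 1.10% of all genes).

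Between genotypes at 3 mo, 1 of 644 strong-peak genes changed (0.155%), against 0.882% of all genes tested (0.670% higher, 0.211% lower), with 72 at an unadjusted p under 0.05 (11.2%, against 12.2% of all genes) and 1 called by DESeq2 (0.155%, against 0.891%). Dio2, the enzyme that activates thyroid hormone in astrocytes, had 184, 160, 152, 200 and 181 counts in aSyn Tg 3 mo, against 236, 258, 226 and 214 in Wt 3 mo (log2 change −0.40 ± 0.08, adjusted p = 0.0322, edgeR). The call was lost, with a count of 0, without replicate 3 or 4 of aSyn Tg 3 mo or replicate 2, 3 or 4 of Wt 3 mo. Over all genes the count ran from 27 to 154 as single libraries were left out. At 15 mo, 2 of 641 changed (0.312%), against 0.210% of all genes (0.183% higher, 0.0275% lower), with 83 at an unadjusted p under 0.05 (12.9%, against 11.2% of all genes) and 7 called by DESeq2 (1.09%, against 0.814%). Trim25 had 106, 160, 140, 140 and 93.8 counts in aSyn Tg 15 mo, against 68.5, 69.7, 76.3, 72.4 and 83.9 in Wt 15 mo (log2 change 0.78 ± 0.14, adjusted p = 0.0497, edgeR), with no overlap. Rnf213 had 546, 796, 757, 864 and 532 counts in aSyn Tg 15 mo, against 410, 365, 499, 383 and 451 in Wt 15 mo (log2 change 0.72 ± 0.13, adjusted p = 0.0497, edgeR), again with no overlap. The count became 0 without replicate 3, 4 or 5 of aSyn Tg 15 mo or replicate 1, 2, 4 or 5 of Wt 15 mo, 5 without replicate 6 of aSyn Tg 15 mo, and 0 with RLE factors, where both adjusted p were 0.0505. Over all genes the count ran from 11 to 44 as single libraries were left out.

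**Figure D5:**
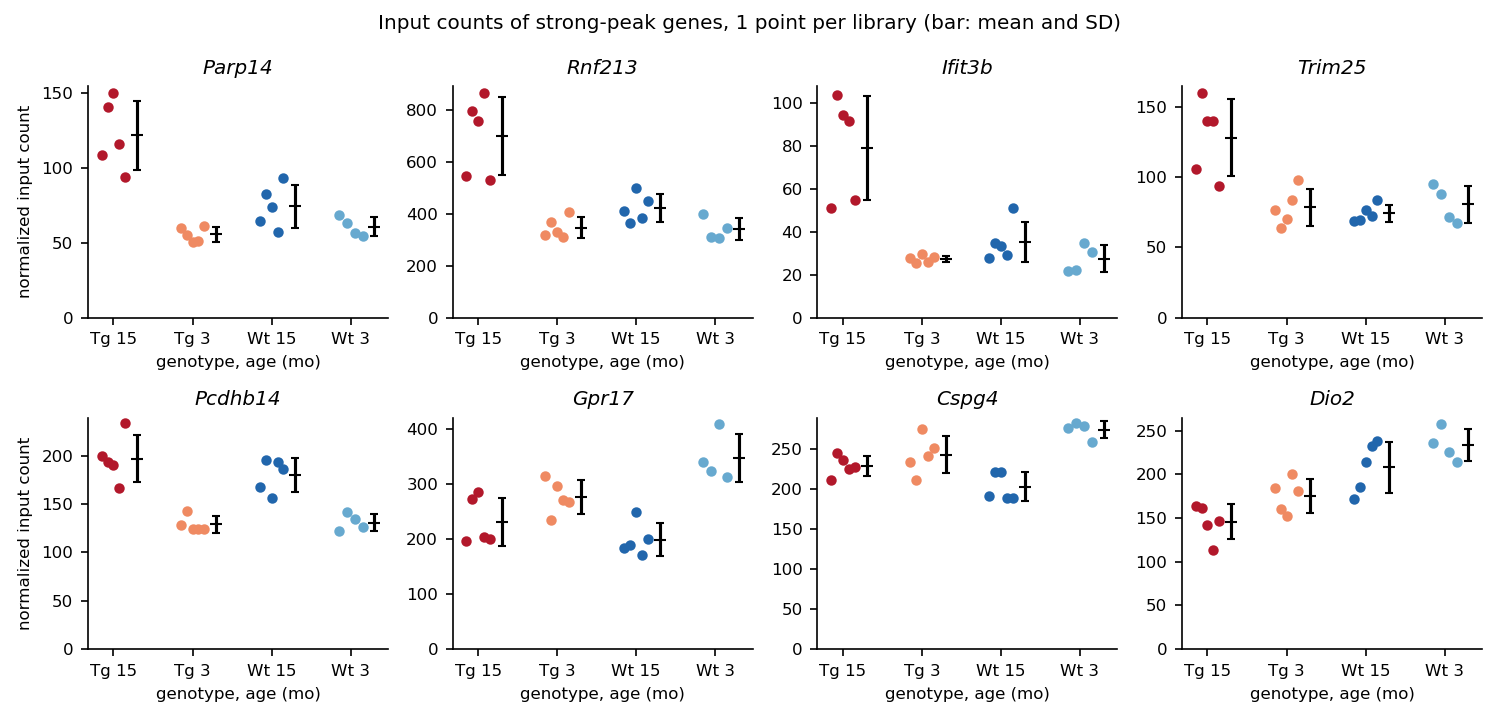
Normalised input counts (linear axes from 0) of 8 strong-peak genes, 1 point per library, in aSyn Tg 15 mo, aSyn Tg 3 mo, Wt 15 mo and Wt 3 mo, with the mean and SD beside the points (n = 5, and 4 for Wt 3 mo). Parp14, Rnf213 and Ifit3b are higher in every aSyn Tg 15 mo library than in any aSyn Tg 3 mo library, and Gpr17 and Cspg4 are lower in every Wt 15 mo library than in any Wt 3 mo library. Ifit3b averaged 79.3 counts in aSyn Tg 15 mo and 27.4 in aSyn Tg 3 mo. It passed the count limit for testing only through the group where it was high.

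Whether the change with age differed between genotypes was tested as an interaction over all 4 groups. It was called for 0 of 641 strong-peak genes and 1 of 10905 genes by edgeR, with 69 strong-peak genes at an unadjusted p under 0.05 (10.8%, against 10.5% of all genes), and no other tool was run. The difference of the age changes, aSyn Tg minus Wt, was 0.85 ± 0.20 for Parp14, 0.95 ± 0.23 for Gbp7, 0.83 ± 0.21 for Trim25 and 0.70 ± 0.18 for Rnf213 on the log2 scale (SE), with adjusted p of 0.179, 0.179, 0.204 and 0.218 (edgeR). Gbp7 averaged 81.6 counts in aSyn Tg 15 mo. In aSyn Tg 3 mo, Wt 15 mo and Wt 3 mo it averaged 42.9, 44.4 and 44.1. Gbp7 thus passed the count limit for testing only through the group where it was high. Its estimate is therefore not independent of that limit. In Wt, Parp14 had 64.9, 82.5, 74.2, 57.1 and 93.7 counts at 15 mo, against 68.8, 63.2, 56.5 and 54.8 at 3 mo, and the ages overlapped.

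The peaks of these changed genes and their RNA did not run together in a single way. The strong peak of Trim25, in its 3′ UTR 39 nt past the end of the coding sequence, stood at 19.4-fold in aSyn Tg 15 mo, where RNA was highest, and at 11.9, 41.2 and 75.8-fold in aSyn Tg 3 mo, Wt 15 mo and Wt 3 mo. Rnf213 was strong only in Wt 3 mo, at 18.4-fold, with 8.95, 6.14 and 5.28-fold in aSyn Tg 15 mo, aSyn Tg 3 mo and Wt 15 mo. Parp14 had 1 interval strong in 3 lists, at 15.3, 12.3, 33.8 and 16.2-fold in aSyn Tg 15 mo, aSyn Tg 3 mo, Wt 15 mo and Wt 3 mo, and a second of 29.6-fold in aSyn Tg 15 mo alone. Gpr17 stood at 16.7, 13.4, 14.4 and 9.77-fold in the same order of groups, and Cspg4 at 6.31, 6.02, 22.3 and 5.39-fold. Dio2 stood at 17.2-fold in aSyn Tg 3 mo and 6.74-fold in Wt 3 mo, with 13.2-fold in aSyn Tg 15 mo and 14.2-fold in Wt 15 mo. Since input enters both the enrichment and the count, the 2 measures of a gene are not independent.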

How the data were processed

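Midbrain RNA was fragmented, part was kept as input and part immunoprecipitated for m6A, and the reads went through Cutadapt, alignment to mm10 by STAR, featureCounts for genes and MeTPeak for peaks in the authors' hands (the labels name mm9 and DESeq). The fold enrichment of a peak, a ratio, and its log10 p, a score, are those the authors deposited, 1 value per group. The deposited signal per library is a count divided by a size factor, and whole reads were recovered for 100% of values (tolerance 0.01). The design had assumed counts for 20 input libraries, and the count test was run on the recovered reads of 19. Libraries carry the numbers of the table columns, which are not all those of the labels, and were matched to groups only.

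The peaks, gene lists and named genes were chosen with earlier results of these data known. Named are the 8 intervals of highest mean enrichment strong in all 4 lists at an input count of at least 50, the 3 highest peaks of each list, the 3 highest found in 1 list only, up to 4 members of each gene list, up to 6 called genes per comparison, the peaks with most blocks or width, and the 3 genes with most intervals. Other intervals strong in all lists and Hcn4 and Vgf were added after their values were seen. Values of some single genes are not reported here.

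Expression tests used the quasi-likelihood model of edgeR (version 4.0.16, under R 4.3.3) with TMM factors and Benjamini-Hochberg adjustment, each comparison on its 2 groups, and checked on simulated data, where 99.0% to 100% of 200 genes changed 2-fold were recovered among 10867 to 10947. Alternatives were DESeq2 1.42.0, RLE factors, other count limits, a single fit of all groups, a replicate block, libraries left out in turn, a limit of 20-fold, the top 5% of each list and other windows. Peak tables were read with pandas 2.3.3 under Python 3.11.15, and peaks were placed on GENCODE M21 with GRCm38. Blocks of 6 strong peaks could not be rebuilt, and 8 strong peaks had no sequence window.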

Additional observations from a re-analysis of the deposited data

Results flagged for a closer look

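Among 60 groups of 4 or 5 libraries examined, 4 held a library whose distance from the nearest other exceeded the 95% limit of Dixon's test, where chance gives about 1 in 20. Pcdhb14, a strong-peak gene, had 143 normalised counts in replicate 3 of aSyn Tg 3 mo, with the other libraries of that group at 124 to 128, and this value still lay below every aSyn Tg 15 mo library. Pcdhga2 had 106 counts in replicate 1 of Wt 15 mo, with the others at 78.6 to 85.7. The other two are the neighbouring-tissue genes of the report, Tbr1 at 145 (others 1.04 to 5.30) in replicate 2 of Wt 15 mo and Cbln3 at 89.5 (others 5.71 to 19) in replicate 6 of aSyn Tg 3 mo.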

How the results depend on the processing

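A limit of 20-fold left 313, 144, 305 and 249 strong peaks in aSyn Tg 15 mo, aSyn Tg 3 mo, Wt 15 mo and Wt 3 mo, and an input count of at least 50 left 346, 146, 294 and 208. In the same order of groups, the share strong in all 3 other lists was 1.92%, 4.17%, 1.97% and 2.41% at 20-fold and, with the top 5% of each list, 12.6% in aSyn Tg 15 mo, 11.6% in Wt 15 mo and 11.7% in Wt 3 mo, where aSyn Tg 3 mo had 12.7%. Median widths were 209, 180, 211 and 181 nt at 20-fold and 421, 450, 390 and 360 nt at an input count of at least 50, median input counts at 20-fold were 38.5, 30.7, 41.0 and 38.4, and GGACT was in 15.9%, 19.6%, 15.0% and 16.2% of windows of 51 bases.

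For expression with age in aSyn Tg (10 genes), a count limit of 10 gave 24 (2.24%, against 1.33% of all genes) and no limit 25 (2.09%, against 1.23%). These limits also let in more strong-peak genes, 1070 and 1194 against 635. Leaving out libraries gave 7 to 13, while the count over all genes ran from 53 to 132. With age in Wt (7), DESeq2 gave 14 (2.17%, against 1.10% of all genes) and a single fit of all groups 13 (2.02%, against 0.745%). A limit of 20-fold gave 3 (1.01%, against 0.359%), and leaving out libraries 0 to 32, with 0 to 326 over all genes. For genotype at 3 mo (1), the count limit of 10 gave 4 (0.375%, against 0.828% of all genes) and no limit also 4 (0.335%, against 0.779%). A single fit and a limit of 20-fold gave 0, and leaving out libraries 0 to 1, with 27 to 154 over all genes. For genotype at 15 mo (2), DESeq2 and a single fit gave 7, RLE factors 0 and a limit of 20-fold 1, and the DESeq2 share over all genes stands with the result above. The limit of 20-fold uses the main fit, in which 0.210% of all genes were called. Shares over all genes for the single fits of both genotype comparisons and for RLE factors are not given here. Those counts are therefore no result about strong-peak genes. Leaving out libraries gave 0 to 5, with 11 to 44 over all genes. Replicate numbers were not shown to pair libraries: same-numbered libraries had correlations of −0.28 to 0.31, and in no comparison were all above 0.1. With the replicate block, on the 3 or 4 shared numbers only, the counts were 4, 0, 0 and 3 in the order above, and the same libraries unblocked, an alternative chosen after seeing the data, gave 5, 1, 0 and 3. For age in aSyn Tg and in Wt the blocked shares were 0.630% and 0%, against 0.375% and 0.0368% of all genes. The unblocked shares were 0.787% and 0.155%, against 0.411% and 0.129%. For the genotype comparisons, shares over all genes with these libraries are not given here. Their counts of 0 and 3 are therefore not read against the main counts. For the 15 calls of single named genes, 163 of 233 alternatives kept the call, 70 lost it and 0 reversed it. The cause was not tested, except that the block uses fewer libraries.

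Peak values have no replicates, the depth of the immunoprecipitated libraries is unknown here, and input counts of a whole gene do not give the reads under a peak.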
